A study of Mus musculus with 36 samples.

Results

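Naive mice of the 2 cohorts of this series were compared with each other. The result is a baseline for reading contrasts of 1 h with 4 h after the forced swim, which also compare the cohorts. Whether the swim libraries carry the same difference cannot be told, since cohort and time coincide in them. The libraries were chosen by their labels alone: naive replicates 1 to 3 made up cohort 1 and naive replicates 4 to 7 made up cohort 2, in each genotype. This gave 14 of the 36 libraries, 6 in cohort 1 (3 WT and 3 Shank3) and 8 in cohort 2 (4 WT and 4 Shank3). WT mice were Shank3(+/+) and Shank3 mice were Shank3(deltaC/+), littermates on the background labelled C57BL6JL. All of them, controls included, carried HA-Rpl22 and Camk2a-Cre(+/-), and none had been made to swim. The genotype labels give HA-Rpl22(f/+), while the extraction text of the labels writes f/f. The labels do not give age or sex, and they say nothing about what set the cohorts apart beyond their number. Cohort 1 also held every swim library taken at 1 h and cohort 2 every swim library taken at 4 h.

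In RiboTag mice, cells that express Cre switch to an HA-tagged form of the ribosomal protein Rpl22, and ribosomes are then pulled down with their RNA through the tag. Camk2a drives Cre mainly in excitatory forebrain neurons, so the RNA stands for what the ribosomes of cortical pyramidal cells hold at the time of killing. Shank3 is a scaffold of the postsynaptic density, the protein mesh under excitatory synapses. Its partial loss leaves mice with altered excitatory transmission.

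The libraries held between 0.884 and 1.81 M counts, which did not differ between cohorts beyond the spread between libraries (difference 0.0702 M, exact permutation p = 0.66, two-sided). The row of ribosomal RNA took 0.851 to 6.41% of the counts in 12 of the libraries and 13.5% and 38.6% in Shank3 cohort 2 replicates 6 and 7. Without both of these the number of genes called below was 2246 instead of 2371. Camk2a, Slc17a7 and Neurod6, which mark pyramidal neurons, had counts in every library. Of the 10 blood markers, 9 had no count in any of the 14 libraries, and Cldn5 (endothelium), Aqp4 (astrocytes, at most 2 counts) and Tmem119 (microglia, at most 1 count) were at or near 0 in both cohorts. Other genes of these glial lists had more counts, among them Slc1a2 with 8 to 77, Glul with 19 to 88, Cpe with 15 to 120 and Csf1r with 502 to 1027. The rows of Slc1a2, Glul and Csf1r have an exon opposite another gene, whose reads cannot be told apart from theirs here. Cpe has no gene opposite. Y-linked Ddx3y had 8 to 67 counts in every naive library, and Xist, the RNA of the silenced X chromosome, had 0 to 2. Shank3 itself, which a gene-level count does not split at the deleted part, had 4 to 10 counts in WT libraries and 9 to 30 in those labelled Shank3, and its cohort difference was -0.04 on the log2 scale (SE 0.266, edgeR adjusted p = 0.909).

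**Figure D1:**
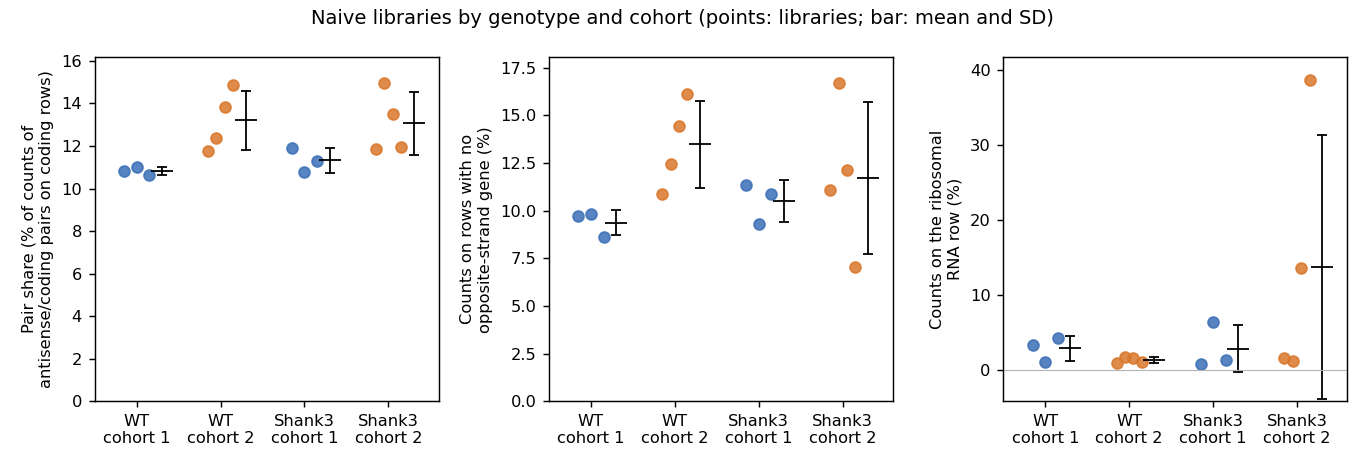
Share of counts on coding rows of antisense and coding pairs (left), on genes without an opposite gene (middle) and on the ribosomal RNA row (right), in percent, for the 14 naive libraries by genotype and cohort (blue, cohort 1; orange, cohort 2). Points are libraries and bars are the mean and SD; the pair share runs from 10.65 to 11.9% in cohort 1 and from 11.75 to 14.98% in cohort 2.

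One property of the libraries moved with the cohort. Many loci have an antisense gene whose exons overlap those of a coding gene on the other strand, and the percentage of their joint counts found on the coding rows is called the pair share here. In WT it was 10.8, 11.02 and 10.7% in cohort 1 and 11.7, 12.4, 13.8 and 14.9% in cohort 2. In Shank3 it was 11.9, 10.8 and 11.3% in cohort 1 and 11.9, 15.0, 13.5 and 12.0% in cohort 2. The WT cohorts did not overlap, while Shank3 replicate 1 of cohort 1 lay within the range of cohort 2. Over both genotypes the pair share was 2.06 percentage points higher in cohort 2 (exact permutation p = 0.00735, two-sided, 0.0367 adjusted over 5 library measures). Within a genotype the difference did not pass (exact permutation p = 0.0571 in WT and 0.143 in Shank3, where 0.0286 is the smallest p that 3 against 4 libraries allow). In both cohorts most counts lay on rows with an exon opposite another gene, 79.0 to 91.1% per library. The strand setting of the counting is not stated in the labels or files used here, so reads of a gene and of its opposite partner cannot be told apart on such rows.

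Of 7530 genes tested in the naive libraries, 2371 (31.5%) differed between the cohorts at an adjusted p under 0.05 by the quasi-likelihood test of edgeR, averaged over the genotypes. Of these, 1227 (16.3%) were higher in cohort 2 and 1144 (15.2%) were lower, and the median absolute log2 fold change of the called genes was 0.66. More than a 2-fold difference was seen in 328 of the called genes, 289 of them higher and 39 lower in cohort 2. The named gene with the largest of these differences was Adam17, a metalloprotease that sheds cell surface proteins, at 2.65. Without Shank3 replicate 2 of cohort 1 the count was 1295. The split between higher and lower depended on the scaling: with scaling factors taken only from genes that have no gene opposite, 320 were higher and 1924 lower, and the median log2 fold change of all genes moved from 0.087 to -0.21.

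The called genes were not spread evenly over the classes of gene row. Among the 2671 genes with no gene on the other strand, 658 were higher and 90 lower in cohort 2, with a median log2 fold change of 0.356. Among the 4089 genes with an exon opposite another gene, 411 were higher and 1031 lower, with a median of -0.195. Antisense rows of the pairs stood lowest, with 50 of 892 higher, 379 lower and a median of -0.382, while the 678 coding rows of the pairs had a median of 0.138. In 453 of 540 pairs with both rows tested, the coding row had the larger log2 fold change of the pair. The pair share is made up of the counts of such pairs, so these values restate it in part. With the pair share of each library added as a covariate, the 3 class medians came to between 0.032 and 0.045, and 2 genes were called in place of 2371 (0.0266%, both higher, and 0.0% lower; 453 at an unadjusted p under 0.05). The pair share and the cohort overlap in these libraries, so the covariate also takes up any cohort difference that runs along with it. A fit of the genes with no gene opposite alone, scaled among themselves, called 355 of 2481 (14.3%), with 136 (5.48%) higher and 219 (8.83%) lower. The genes with an exon opposite, fitted and scaled among themselves as an alternative added after the data were seen, gave 738 higher and 511 lower. In these 2 classes the majority direction was the reverse of that in the joint fit, since scaling within a class moves all of its genes alike. The genes with an opposite gene but no exon opposite were not fitted alone.

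**Figure D2:**
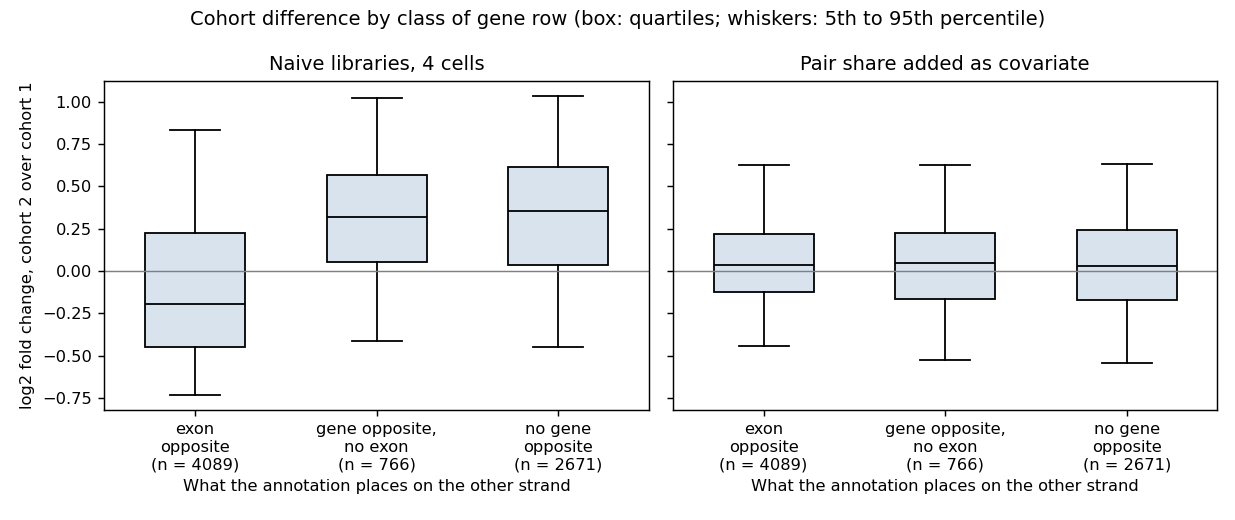
Log2 fold change of cohort 2 over cohort 1 in naive libraries (y axis) by what the annotation places on the other strand of the gene (x axis), without (left) and with (right) the pair share as a covariate. Boxes are quartiles and whiskers the 5th to 95th percentile of genes; the medians run from -0.195 to 0.356 on the left and from 0.032 to 0.045 on the right.

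The 2 genes that passed the test also with the pair share were Evi5l and Map1a. Evi5l (8:4166567-4211257, plus strand, mm10) codes for a protein of the family that switches off Rab GTPases, the regulators of vesicle traffic. Its CPM (counts scaled to a library of 1e+06) was 89.6, 120.0 and 88.8 in WT cohort 1 and 311, 385, 322 and 286 in WT cohort 2. In Shank3 it was 70.9, 106 and 86.6 in cohort 1 and 399, 300.0, 345 and 393 in cohort 2. Every cohort 2 library stood more than 2-fold above every cohort 1 library. The log2 fold change was 1.87 (SE 0.142, edgeR adjusted p = 4.23e-11), 1.70 in WT and 2.03 in Shank3. With the pair share it was 2.11 (SE 0.136, adjusted p = 2.08e-14).

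Evi5l has an exon opposite Prr36 and opposite the antisense gene 4932443L11Rik, and neither of these rows was higher in cohort 2. The 4932443L11Rik row was lower by 0.55 on the log2 scale (CPM 859 to 1100 in cohort 1 and 495 to 835 in cohort 2, edgeR adjusted p = 0.00268). The Prr36 row was lower too, by 0.50 on the log2 scale (edgeR adjusted p = 0.0308). The swim libraries, which share none with the naive ones, put Evi5l 1.05 higher on the log2 scale in cohort 2 at 4 h than in cohort 1 at 1 h (SE 0.167, edgeR adjusted p = 1.41e-05), and 1.81 higher with the pair share. Scaled over all 36 libraries, its CPM lay between 60.0 and 168 in all 17 libraries of cohort 1 and between 142 and 521 in the 19 of cohort 2. In the swim libraries of cohort 2 it ran from 142 to 298, below the 348 to 521 of naive mice of the same cohort. The cohorts thus overlapped between 142 and 168.

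Map1a (2:121289600-121310832, plus strand) codes for a microtubule-associated protein of mature neurons that also binds synaptic scaffolds. Its CPM was 110.0, 103 and 123 in WT cohort 1 and 223, 227, 319 and 181 in WT cohort 2. In Shank3 it was 103, 155 and 146 in cohort 1 and 283, 236, 264 and 307 in cohort 2. The 2 cohorts did not overlap in either genotype, and the lowest cohort 2 library was WT replicate 7. The log2 fold change was 1.05 (SE 0.144, edgeR adjusted p = 4.54e-05), and 1.25 with the pair share (adjusted p = 2.38e-05). In the swim libraries it was 1.4 (SE 0.195, adjusted p = 5.84e-06), and there too all 11 libraries of cohort 2 stood above all 11 of cohort 1. Its row has an exon opposite Ppip5k1, an inositol phosphate kinase gene whose own log2 fold change of 0.57 did not pass in naive mice (adjusted p = 0.0522). Evi5l and Map1a passed under each of the 26 alternative settings listed at the start that could test them.

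**Figure D3:**
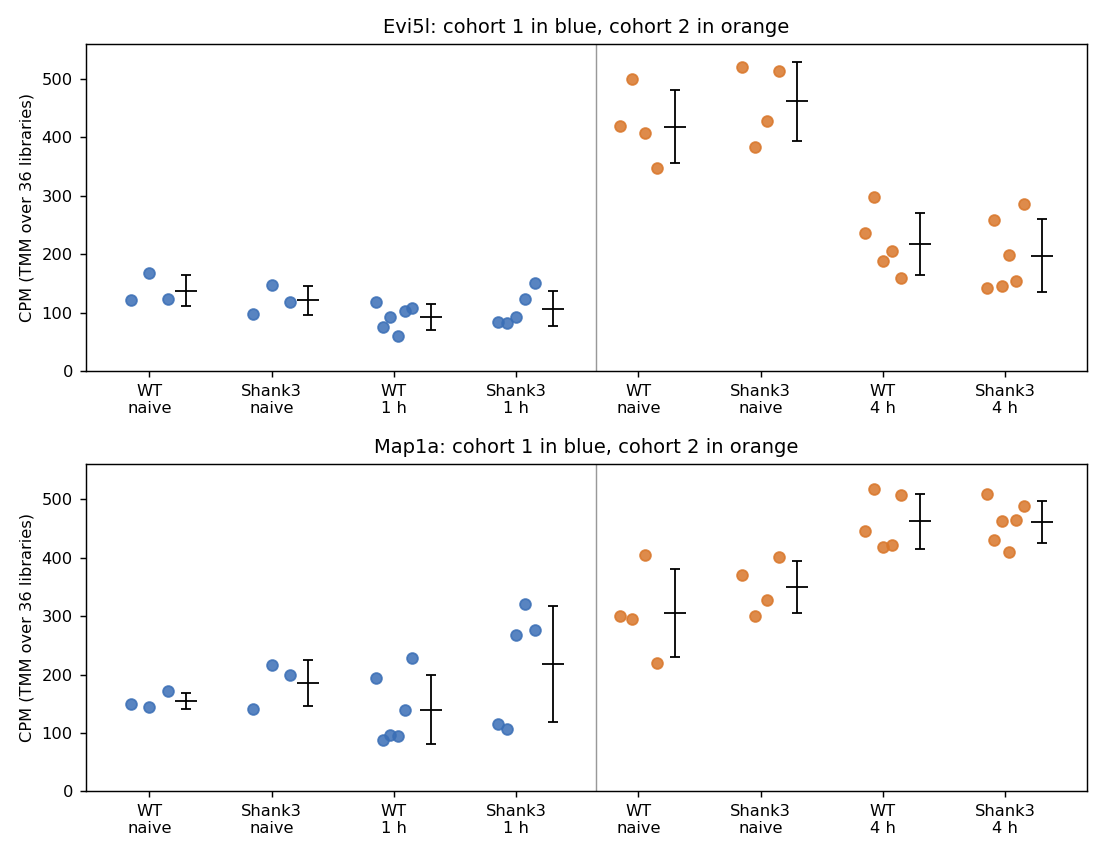
CPM of Evi5l (top) and Map1a (bottom) in each of the 36 libraries, scaled over all of them, by genotype and treatment; cohort 1 (blue) is left of the line and cohort 2 (orange) right of it. Points are libraries and bars are the mean and SD; naive libraries of cohort 2 lie between 348 and 521 for Evi5l, and those of cohort 1 between 97.1 and 168.

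The other genes named here are those with the smallest p in each direction, 15 higher and 15 lower in cohort 2, leaving out provisional names. Among the 15 higher, 11 have an exon opposite another gene, against 411 of all 1227 genes called higher. All but Evi5l and Map1a were no longer called with the pair share, though all 15 kept their sign. Several kept most of their log2 fold change with it: Btbd8 went from 1.33 to 1.28 (edgeR adjusted p = 0.0798), Specc1 from 1.93 to 1.63, Smap1 from 0.94 to 0.77 and Cdc37l1 from 1.39 to 1.0. Araf, a kinase of the RAF family that feeds the MAP kinase cascade, had a CPM of 101, 107 and 138 in WT cohort 1, of 192, 226, 376 and 443 in WT cohort 2, of 211, 113 and 151 in Shank3 cohort 1 and of 386, 412, 392 and 396 in Shank3 cohort 2. Within each genotype the cohorts did not overlap, but Shank3 replicate 1 of cohort 1 lay above WT replicate 4 of cohort 2 (log2 fold change 1.37, SE 0.17, edgeR adjusted p = 1.36e-05). Adam17 had few reads, with a CPM of 0.834 to 3.37 in cohort 1 and 3.42 to 21.0 in cohort 2, so that the cohorts only just separated.

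The rest of the higher group covered several functions. The Hsp90 co-chaperone homologue Cdc37l1 ran from 23.0 to 53.2 CPM in cohort 1 and from 58.9 to 120.0 in cohort 2 (log2 fold change 1.39). Cox6c, a subunit of cytochrome c oxidase, ran from 6.56 to 22.9 and from 26.5 to 48.4 (1.36). Specc1, which codes for a protein linked to the cytoskeleton, ran from 1.12 to 5.91 and from 7.66 to 16.7 (1.93). None of these 3 genes overlapped between the cohorts. Further log2 fold changes were 1.91 for Rev1 (a polymerase that copies damaged DNA), 1.96 for Prg4 (lubricin) and 1.33 for Btbd8. Smap1, an activator of Arf GTP hydrolysis, reached 0.94, the fatty acyl-CoA reductase Far2 1.47, Gt(ROSA)26Sor, the noncoding gene of the Rosa26 locus, 2.45, and the nucleosome assembly gene Nap1l1 0.83. Partners with an opposite exon were Syn1 for Araf, Ak3 for Cdc37l1, Eif5b for Rev1, Tpr for Prg4 and Iah1 for Adam17. They were Vps13b for Cox6c, B3gat2 for Smap1, Ergic2 and Far2os2 for Far2 and Thumpd3 for Gt(ROSA)26Sor. Nap1l1 was the sole member of the 15 with no gene on the opposite strand, and it also passed among such genes alone (log2 fold change 0.55, edgeR adjusted p = 0.00534).

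The 15 genes with the smallest p among those lower in cohort 2 had smaller differences, with log2 fold changes from -0.59 to -1.25. Of these, 13 have an exon opposite another gene, as do 1031 of all 1144 genes called lower. Examples of such pairs were Fam57b opposite the glycolytic gene Aldoa, Sphk2 (a sphingosine kinase) opposite Rpl18 and Dbp, and Thra (a thyroid hormone receptor) opposite Nr1d1. Pcif1, which methylates the mRNA cap, lies opposite Zfp335 and had a CPM of 391 to 543 in cohort 1 and 219 to 338 in cohort 2, with no overlap (log2 fold change -0.70, SE 0.124, edgeR adjusted p = 0.000691). Grin3b, an NMDA receptor subunit opposite Tmem259, had a CPM of 25.6, 37.7 and 31.5 in WT cohort 1 and 18.8, 16.2, 14 and 17.2 in WT cohort 2. In Shank3 it was 22.9, 48.4 and 34.5 in cohort 1 and 20.3, 12.7, 15.3 and 15.3 in cohort 2. Its cohorts did not overlap either, and the log2 fold change was -1.07 (SE 0.199, edgeR adjusted p = 0.00113).

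Only Hipk4 and Ccdc188 of these 15 have no gene on the other strand. Hipk4, a protein kinase gene, had a CPM of 1290, 1490 and 1230 in WT cohort 1 and 983, 899, 807 and 855 in WT cohort 2. In Shank3 it was 1240, 1410 and 1410 in cohort 1 and 993, 660, 749 and 1190 in cohort 2. The cohorts did not overlap, and Shank3 replicate 7 came closest. The log2 fold change was -0.59 (SE 0.125, edgeR adjusted p = 0.00208) and -0.84 among genes with no gene opposite (adjusted p = 0.00191). Ccdc188 stood at -1.07 and at -1.36 among those genes (edgeR adjusted p = 0.00191). Further log2 fold changes were -0.83 for Txnrd2 (mitochondrial thioredoxin reductase), -0.67 for Sphk2, -0.66 for the mitochondrial histidyl-tRNA synthetase gene Hars2, -0.67 for Fam57b and -0.68 for Kxd1. They were -0.60 for Thra, -0.61 for the phosphatase 2A scaffold gene Ppp2r1b, -0.95 for the thrombopoietin gene Thpo, -0.69 for the serine synthesis enzyme Psph and -1.25 for Zfp335os. All 15 kept their sign with the pair share and none was called with it.

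Antisense rows that were called were mostly lower in cohort 2, 379 against 50. Gm36736, opposite the heparan sulfate sulfotransferase gene Hs3st2, was lower by 0.83 on the log2 scale (edgeR adjusted p = 0.000947), while Hs3st2 stood at -0.10 (adjusted p = 0.749). A630072L19Rik, opposite Ccdc88c, was lower by 0.92, Gm20512, opposite Tomm40, by 0.80 and Gm26810, opposite Capns1, by 0.94. Those 3 coding partners had 1 to 19 counts per naive library and did not pass the low-count filter, so their own cohort difference was not tested. The exception among the 5 antisense rows named was 1110002L01Rik, which was higher by 0.95 on the log2 scale (adjusted p = 0.000517), and of its coding partners Kif3c, a kinesin motor gene, was higher by 0.55 (adjusted p = 0.00285) while Asxl2 stood at -0.35 (adjusted p = 0.33).

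Gene lists were read against the share of all tested genes, 16.3% higher and 15.2% lower in cohort 2, and against the median of all genes, 0.087. Under the other scaling, on genes that have no gene opposite, 320 of 7530 genes were higher and 1924 lower (median -0.21). Genes with no gene opposite, of which 24.6% were higher (median 0.356), are frequent in some lists, such as 25 of 31 translation factors. They were chosen with earlier results of these data known, and no list was tested as a set. Genes of energy metabolism were among those that stood highest. Of 43 nuclear oxidative phosphorylation genes past the low-count filter, 24 were higher and 1 lower, with a median log2 fold change of 0.641. Examples were Atp5h, of the ATP synthase stalk (log2 fold change 0.85, edgeR adjusted p = 0.00218), and Ndufv2, of complex I (1.43, adjusted p = 0.00279). Of 8 mitochondrially encoded transcripts 5 were higher and none lower, with a median of 0.850. The complex IV gene mt-Co1 had a CPM of 10.2, 9.84 and 8.99 in WT cohort 1, of 17.9, 31.4, 44.1 and 67.1 in WT cohort 2, of 25.9, 10.0 and 21.4 in Shank3 cohort 1 and of 45.7, 65.3, 43.0 and 25.2 in Shank3 cohort 2. Its groups did not overlap in WT and overlapped in Shank3, and the log2 fold change was 1.66 (adjusted p = 0.000691). The ribosomal RNA of mitochondria, mt-Rnr2, was higher by 1.97 (SE 0.505, edgeR adjusted p = 0.00562) but had few reads. Its mean CPM was 1.65 and 5.41 in WT cohorts 1 and 2, and 2.13 and 8.52 in Shank3. It did not pass within a genotype (edgeR adjusted p = 0.0839 in WT and 0.121 in Shank3). Of 20 genes of hypoxia and glycolysis, 8 were higher and none lower, among them the lactate dehydrogenase gene Ldha (0.82, adjusted p = 0.00447) and the aldolase gene Aldoc (1.19, adjusted p = 0.00655).

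Genes of protein synthesis and breakdown also stood high in cohort 2. Of 45 cytosolic ribosomal protein genes past the filter, of 80 listed, 22 were higher and 4 lower, with a median log2 fold change of 0.600. Rps23 was higher by 1.11 and Rps3a1 by 1.34 (edgeR adjusted p = 0.00213 and 0.00219). Rpl15, whose row lies opposite Nkiras1, was lower by 0.58 (adjusted p = 0.00276). Of 31 translation factor genes, 16 were higher and none lower (median 0.560), among them the elongation factor gene Eef1a1 (0.99, adjusted p = 0.00218) and the initiation factor genes Eif2s2 (1.67, adjusted p = 0.00113) and Eif5b (0.68, adjusted p = 0.00135). The Eif5b row has an exon opposite Rev1, which was higher too. Of 27 proteasome subunit genes, 9 were higher and none lower (median 0.53), with Psma2 at 1.48 (adjusted p = 0.00206). With scaling factors from genes that have no gene opposite, 320 of all 7530 genes were higher and 1924 lower. Among the lists the counts were then 8 higher and 1 lower for oxidative phosphorylation and 6 and 6 for ribosomal proteins. These counts were 5 and 1 for translation factors and 3 and 3 for the proteasome. They were 2 and 0 for mitochondrially encoded transcripts and 3 and 1 for hypoxia and glycolysis.

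The synaptic lists had smaller medians. Of 24 genes of presynaptic vesicle release, 10 were higher and 1 lower, with a median log2 fold change of 0.370, and of 32 postsynaptic density genes, 8 were higher and 1 lower, with a median of 0.320. The vesicle genes Syn2 (0.90, edgeR adjusted p = 0.00107), Vamp2 (0.76, adjusted p = 0.00346) and Napb (0.97, adjusted p = 0.00218) were among the first group. The AMPA receptor gene Gria2 (0.74, adjusted p = 0.00544), the spectrin-binding gene Add2 (0.66, adjusted p = 0.00508) and Camk2a (0.56, adjusted p = 0.00641) were among the second. With scaling on genes that have no gene opposite, these counts were 3 higher and 2 lower, and 0 higher and 3 lower, with medians of 0.054 and 0.007. Set against the medians of all genes, 0.087 and -0.21, both lists lay above them under each scaling. Under the scaling over all genes, their members with no gene opposite had medians of 0.529 and 0.345, against 0.356 for all such genes. Whether the lists differ from that class was not tested.

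Genes that respond to neuronal activity and stress matter for reading the swim response against these baselines. Of 10 rapid immediate early genes that passed the filter, of 29 listed, none was higher in cohort 2 and 2 were lower, the transcription factor genes Jund (-0.46, edgeR adjusted p = 0.0378) and Egr4 (-0.57, adjusted p = 0.0428). Fos had 0 to 5 counts in cohort 1 and 1 to 8 in cohort 2 and did not pass the filter. Arc had a CPM of 0 to 9.17 in cohort 1 and 2.03 to 27.4 in cohort 2, where the highest value was that of Shank3 replicate 7, and its log2 fold change of 0.72 did not pass (adjusted p = 0.234). For Egr1 the CPM ran from 24.7 to 44.7 in cohort 1 and from 10.2 to 56.9 in cohort 2 (log2 fold change 0.24, adjusted p = 0.37). Fos, Arc and Egr1 were chosen after their values were seen.

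Of the 10 rapid genes 5 lay above 0, and the 2 that were lower are close to the background share of 15.2%. Of 15 slower activity-regulated genes, 6 were higher in cohort 2 and none lower, with a median log2 fold change of 0.400. The G protein regulator Rgs4 had a CPM of 107, 119 and 146 in WT cohort 1, of 175, 254, 304 and 382 in WT cohort 2, of 228, 173 and 193 in Shank3 cohort 1 and of 216, 290.0, 288 and 250.0 in Shank3 cohort 2. Its groups overlapped in Shank3 and not in WT (log2 fold change 0.78, edgeR adjusted p = 0.00121). The kinase gene Plk2 stood at 0.78 (adjusted p = 0.00692) and the neuritin gene Nrn1 at 0.83 (adjusted p = 0.00701). With the other scaling 2 of the 15 were higher and 1 lower (median 0.073). Of the 15, 12 have no gene opposite, with a median of 0.477 against 0.356 for all such genes. When such genes were fitted alone, 1 of the 12 was higher and 1 lower (median 0.18, against 0.04 for all of them). Whether the list differs from that class was not tested. Of 7 glucocorticoid-responsive genes, 1 was higher, the receptor gene Nr3c1 (0.72, adjusted p = 0.0188), and the median of 0.105 came to -0.202 with the other scaling, close to the median of all genes there.

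Of 14 clock genes, 3 were higher and none lower (median 0.445): Tef (0.86, edgeR adjusted p = 0.0144), Csnk1d (0.72, adjusted p = 0.0166) and Arntl, the activator of the clock (0.97, adjusted p = 0.0183). Each of these 3 rows has an exon opposite another gene, and none was called with the other scaling. Of 14 chaperone genes, 3 were higher and 1 lower, with Hspa8 at 0.66 (adjusted p = 0.00559) and Hsp90aa1 at 0.49 (adjusted p = 0.00996). That list's median of 0.207 turned to -0.077 with the other scaling, under which none was higher and 4 were lower and the median of all genes was -0.21. Of 11 genes of endoplasmic reticulum stress, 3 were higher (median 0.418), among them Pdia3 (0.94, adjusted p = 0.0102) and Asns (0.94, adjusted p = 0.0108), and none with the other scaling (median 0.097). Of 7 sterol synthesis genes, 3 were higher (median 0.717), among them Fdft1 (1.17, adjusted p = 0.00096) and Hmgcs1 (0.72, adjusted p = 0.00455), and 1 with the other scaling (median 0.401). Of 8 cystine and glutathione genes, Srxn1 was among 2 that were higher (0.83, adjusted p = 0.0188) and Gss was lower (-0.56, adjusted p = 0.0261), against 0 higher and 1 lower with the other scaling. Slc7a11, the cystine transporter, stood at 0.72 and did not pass (adjusted p = 0.115), with a CPM of 2.25 to 24.3 in cohort 1 and 3.04 to 33.9 in cohort 2. With the pair share, no member of any of the 37 lists was called.

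**Figure D4:**
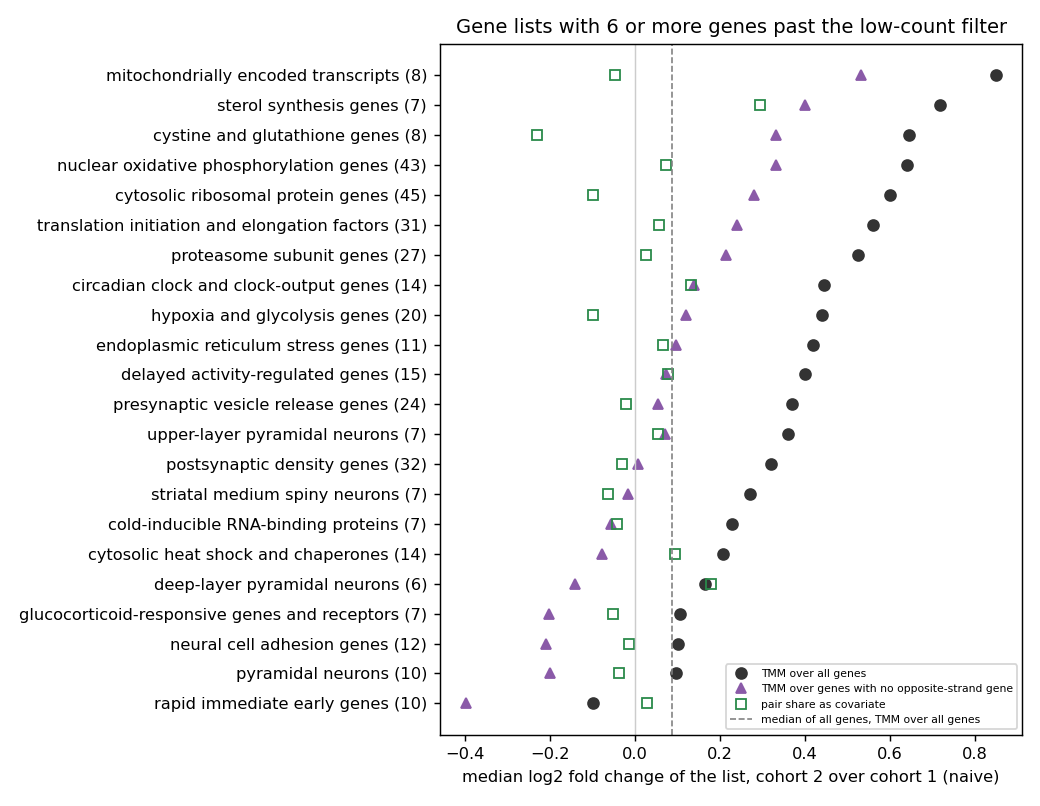
Median log2 fold change of cohort 2 over cohort 1 in naive libraries (x axis) for each list with 6 or more genes past the low-count filter (y axis, number of such genes in brackets), under 2 scalings and with the pair share as a covariate. Under the first scaling the medians run from -0.099 for rapid immediate early genes to 0.850 for mitochondrially encoded transcripts, around a median of all genes of 0.087.

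Many cell type markers did not pass the low-count filter. Calls among the rest are to be read against the 16.3% higher and 15.2% lower of all genes tested. In bulk RNA, fewer cells of a type and less RNA per cell cannot be told apart. Of 10 pyramidal neuron markers past the filter, 2 were higher (Camk2a, and the vesicular glutamate transporter gene Slc17a7 at 0.53, edgeR adjusted p = 0.0333) and 2 lower, and the median was 0.097. The summed level of these 13 markers was 986 to 1598 CPM in cohort 1 and 1053 to 2469 in cohort 2. Of 7 upper-layer markers 3 were higher (median 0.361), among them Calb1 (0.88, adjusted p = 0.00227) and Mef2c (0.60, adjusted p = 0.00423), and of 6 deep-layer markers none was called.

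Of 20 astrocyte markers 3 passed the filter and 2 were higher, Slc1a2 (0.87, edgeR adjusted p = 0.00516) and Cpe (0.74, adjusted p = 0.00712), both also expressed by neurons. The summed astrocyte level was 74.1 to 117 CPM in cohort 1 and 83.0 to 250.5 in cohort 2, while Gfap had at most 3 and 6 counts. Of 16 microglia markers 2 passed, and Csf1r was lower (-0.41, adjusted p = 0.0118). Its row lies opposite Hmgxb3, and Cx3cr1 and C1qa had at most 2 counts. Bsg, of 17 endothelial and mural markers, was higher (1.07, adjusted p = 0.0126). Of 4 oligodendrocyte markers past the filter Qdpr was higher (0.62, adjusted p = 0.0375), and in the hippocampal list Mpped1, the 1 marker tested, was higher (1.06, adjusted p = 0.00622). The myelin genes Mbp and Cnp had 7 to 64 and 27 to 121 counts. The rows of Slc1a2, Qdpr and Cnp have an exon opposite another gene. No marker of interneurons, striatal neurons or oligodendrocyte precursors was called. The part of these cells in the cohort difference was not tested.

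The genotypes were then taken apart, since their libraries are separate. In WT, 937 genes (12.4%) were called, 510 (6.77%) higher and 427 (5.67%) lower, and in Shank3 40 genes (0.531%), 31 (0.412%) higher and 9 (0.12%) lower. Of the 510 genes higher in WT, 492 had a positive log2 fold change in Shank3, and of the 427 lower, 424 had a negative one. Their median log2 fold changes were 1.09 and -0.753 in WT, where they were chosen, and 0.508 and -0.51 in Shank3. Over all 7530 genes the median in Shank3 was 0.05, and the correlation between the genotypes was 0.7. The mean pair share was higher in cohort 2 in both genotypes, by 2.38 points in WT and 1.75 in Shank3. Its part in this agreement was not tested. In both genotypes 24 genes were called, with 20 higher and 4 lower in each. Evi5l, Map1a, Araf, Cdc37l1 and Adam17 were called in each genotype alone.

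The difference between the genotypes in their cohort difference passed for 0 of 7530 genes in edgeR, with 206 at an unadjusted p under 0.05, and for 0 in DESeq2 and in limma. The unequal counts of the genotypes are therefore not a tested difference between them. Srsf10, a splicing factor gene, was among the 5 genes with the smallest p. Its CPM was 3.84, 9.02 and 5.62 in WT cohort 1 and 23.9, 26.3, 21.5 and 23.7 in WT cohort 2, but 22.2, 19.2 and 14.9 in Shank3 cohort 1 and 23.4, 23.3, 17.2 and 16.4 in Shank3 cohort 2. Only the 3 WT libraries of cohort 1 were low (edgeR adjusted p = 1 for the difference between genotypes). With the pair share 1 gene was called for this difference, 1700022I11Rik, opposite Vcp, with a log2 difference of 1.19 (adjusted p = 0.0021).

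**Figure D5:**
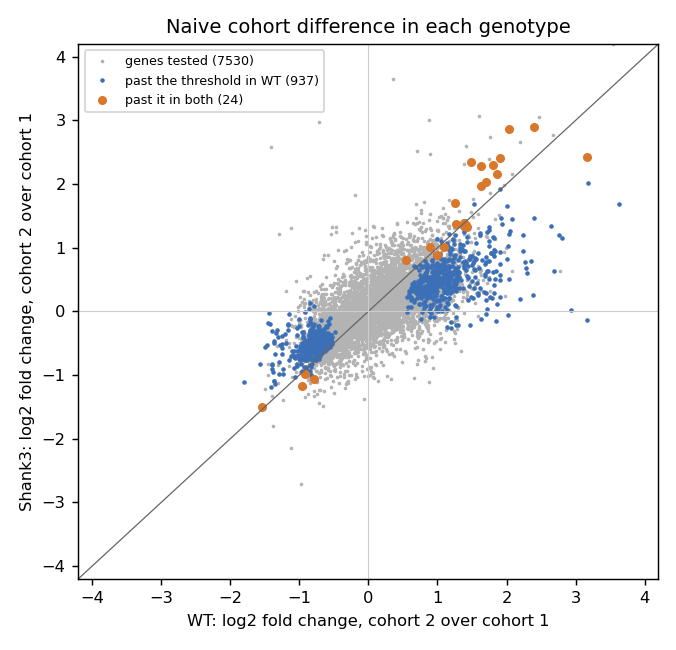
Log2 fold change of cohort 2 over cohort 1 in Shank3 (y axis) against WT (x axis) for the 7530 genes tested (grey; 2 lie outside the axes), with the 937 called in WT in blue and the 24 called in both in orange. The line marks equal values; of the genes called in WT, 492 of 510 higher and 424 of 427 lower have the same sign in Shank3.

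The counts within a genotype turned on single libraries. In WT the count fell from 937 to 1 (Evi5l) without WT replicate 1, to 240 without replicate 2, to 176 without replicate 3, to 27 without replicate 6 and to 50 without replicate 7. It was 2045 without WT replicate 4, 623 without Shank3 replicate 3 and 1482 without Shank3 replicate 5. Leaving out a library of the other genotype also changes the genes tested, their scaling and the shared estimate of the spread, whose parts were not tested. In Shank3 the count went from 40 to 7 without replicate 2, to 11 without replicate 3, to 16 without replicate 5, to 17 without replicate 6, to 267 without replicate 7 and to 80 without WT replicate 7. In a fit over all 36 libraries the counts were 64 in WT and 23 in Shank3.

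The cohort difference of the naive mice was then set beside the swim libraries of cohort 2 at 4 h against those of cohort 1 at 1 h. In that contrast cohort and time after the swim cannot be told apart, and no library is shared with the naive comparison. In the swim libraries 7881 of 11059 genes (71.3%) were called, 4265 (38.6%) higher and 3616 (32.7%) lower. Of the 1227 genes higher in naive cohort 2, 714 were called higher and 155 called lower in the swim libraries of cohort 2. Of 1139 genes lower in naive cohort 2 and tested in both, 1081 were called lower and 4 called higher. The median of these 1139 was -0.565 in naive mice and -1.10 in the swim libraries. The pair share was higher in the same groups, from 11.45 to 16.99% in the 11 swim libraries of cohort 1 and from 17.04 to 33.09% in the 11 of cohort 2. With it as a covariate 140 genes (1.27%) were called in the swim libraries, 104 (0.94%) higher and 36 (0.326%) lower, among them Evi5l and Map1a.

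The values of single genes in both contrasts went the same way for some and opposite ways for others. Specc1 and Btbd8 differed between cohorts by 1.93 and 1.33 on the log2 scale in naive mice and by 1.95 and 1.88 in the swim libraries. Araf and Adam17 went the other way, with 1.37 and 2.65 in naive mice and -1.06 and -1.03 in the swim libraries (edgeR adjusted p = 9.11e-06 and 6.35e-05). Araf had a median CPM over all 36 libraries of 511 at 1 h in cohort 1 and 243 at 4 h in cohort 2. All 15 of the named genes lower in naive cohort 2 were called lower in the swim libraries too, and of the 15 higher 5 were called higher and 4 lower. Ncam2, a cell adhesion gene, did not pass the filter in naive mice. It had 0 to 8 counts in cohort 1 and 3 to 24 in cohort 2.

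Separation of whole groups was rarer than these calls. In 72 of 7530 genes (0.956%) all 8 naive libraries of cohort 2 stood above all 6 of cohort 1, and in 121 (1.61%) all 8 stood below. Of the 72, 11 were also separated in the same direction in the swim libraries, where 2.69% of 11059 genes were, and of the 121, 25 were, where 4.38% were. Map1a, Specc1, Btbd8 and the calcium channel subunit gene Cacnb3 were among the 11, and Thra was among the 25. All 25 have an exon opposite another gene, as do 4089 of the 7530 genes tested and 1031 of the 1144 called lower in naive libraries. Across all 36 libraries no gene had every cohort 2 library above every cohort 1 library. Tmem175, which codes for a lysosomal potassium channel, was the 1 gene of 11341 (0.00882%) with every cohort 2 library below, at 125 to 264 CPM against 266 to 413. Its log2 fold change in the naive libraries was -0.22. Cacnb3 and Tmem175 were chosen after their values were seen.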

How the data were processed

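The deposited values are raw counts for 55470 gene identifiers per library, in whole numbers and not normalized by the authors. Per the labels, ribosome-bound RNA was made into stranded TruSeq libraries and read on an Illumina HiSeq. The genome was mm10, and HISAT2 2.2.0, Salmon 1.4, StringTie 2.1.3 and Trimmomatic 0.39 are among the tools in the submitters' processing notes. Which tool counted, and on which strand, is not given in the sources used here. GENCODE vM21 (mm10) placed 55229 identifiers; the others held 0.0387% of counts and were kept.

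The counts of the 14 naive libraries were fitted with edgeR 4.0.16 (quasi-likelihood test, robust, TMM, filterByExpr) in R 4.3.3, with 1 mean per genotype and cohort and 10 residual degrees of freedom. The cohort contrast was averaged over the genotypes, with Benjamini-Hochberg adjustment over 7530 genes. CPM values are counts scaled by TMM. The SE is derived from the F statistic and can be too small at low counts. The 22 swim libraries were fitted in the same way on their own. limma 3.58.1, DESeq2 1.42.0 and other scalings were alternatives. Replicate libraries were compared in 18 pairs (chi-square per degree of freedom from 2.246 to 81.59) and none was merged. The labels do not tie libraries to animals, so p-values stand for the spread among libraries, which may be technical. On simulated counts of 7530 genes, the averaged cohort test called 38.81% of genes changed 1.5-fold, 74.63% changed 2-fold, 89.39% changed 3-fold and 5 of 7330 unchanged ones. These counts were drawn for each gene on its own, with no shift shared by many genes of a library, such as one in the pair share. The rates therefore do not cover calls that come with such a shift.

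Named genes were the 15 smallest p in each direction of log2 CPM 1 or more, 3 members of each list, 5 antisense rows with their partners, the smallest p of the genotype difference and a fixed set of control genes; some are not reported here. The libraries, lists and rules were chosen with earlier results of these data known.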

Additional observations from a re-analysis of the deposited data

Results flagged for a closer look

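Within groups of 4 libraries, the CPM of each gene named and the 5 library measures were searched for 1 library far from the others by Dixon's criterion, and 7 of 202 groups met it, where chance alone gives about 1 in 20. Arntl was at 5.98 CPM in WT replicate 4, against 17.2 to 18.8 in the other cohort 2 WT libraries. Hspa8 was at 312 in the same library, against 620.0 to 639. In Shank3 cohort 2, replicate 5 had 50.5 CPM of Rev1 (others 36.1 to 38.2), 27.6 of Srxn1 (others 16.2 to 17.5) and 20.4 of A630072L19Rik (others 36.1 to 36.6). Replicate 7, the library with the largest share of ribosomal RNA, had 30.7 of Egr4 (others 12.2 to 13.4), and replicate 6 had 4.78 of Ccdc88c (others 1.7 to 2.19). WT replicate 4 had the lowest pair share of the cohort 2 libraries and Shank3 replicate 5 the highest. The part of the pair share in these values was not tested.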

How the results depend on the processing

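The averaged cohort difference called 2371 genes and between 1953 (DESeq2) and 2944 (limma with quality weights) under the other scalings, filters and models, except as follows. It called 2 with the pair share as a covariate, 355 among genes with no gene opposite, 1249 among genes with an exon opposite and 1208 in 1 fit of all 36 libraries. With scaling on genes that have no gene opposite, the split was 320 higher and 1924 lower, against 1227 and 1144, and that scaling together with the pair share also called 2. For WT (937) these counts were 2, 144, 421, 64 and 2, and limma with quality weights called 1939. For Shank3 (40) they were 4 with the pair share, 1 among genes with no gene opposite, 23 in the fit of all libraries and 3 with the scaling and pair share together. Shank3 also gave 15 with that scaling alone, 251 with quality weights and 148 without a low-count filter. The genotype difference (0) called 1 gene with the pair share under either scaling, and the swim contrast (7881) called 140 with the pair share and 2680 among genes with no gene opposite. With the replicate number as a random block in limma the counts were 2415, 723 and 39. The genotypes share these numbers and the cohorts compared do not, so no pairing of cohorts was possible, and the block's correlation was -0.031.

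Leaving out 1 library gave 1295 to 2988 genes on average, 1 to 2045 in WT, 7 to 267 in Shank3 and 0 for the genotype difference. The cohort difference of the pair share ran from 1.74 to 2.3 points, that of the total from -0.0136 to 0.138 M, of the ribosomal RNA row from 0.529 to 6.75 points, of mitochondrial rows from 0.00873 to 0.0168 points and of genes detected from 466 to 948. With all 14 libraries the difference of mitochondrial rows was 0.0132 points and did not pass (exact permutation p = 0.0816, 0.204 adjusted over 5 library measures). Without Shank3 replicates 6 and 7 the ribosomal RNA difference turned to -1.49 points, and that of mitochondrial rows came to 0.0201 (exact permutation p = 0.00857, unadjusted).

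Of 84 genes named that were called, 82 lost their call with the pair share and 24 with the other scaling. With the pair share, and with both, the log2 fold change of Jund turned to 0.03 and 0.03, of Nrn1 to -0.07 and -0.08, of Ldha to -0.02 and -0.03, of Srxn1 to -0.11 and -0.12, of Hs3st2 to 0.02 and 0.01 and of Egr1 to -0.06 and -0.07. Vamp2 came to -0.0 with both. Egr1 also turned to -0.07 with the scaling alone and to -0.05 among genes with no gene opposite. Hs3st2 turned to 0.02 with quality weights and to 0.12 among genes with an exon opposite, and ran from -0.17 to 0.04 without 1 library. Shank3 turned to 0.07 without the interaction and to 0.18 among genes with an exon opposite, and ran from -0.1 to 0.07 without 1 library. The cause of these changes was not tested.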
